A study of Mus musculus with 18 samples.

Results

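The 8 genes described here encode fibroblast growth factor (FGF) ligands and receptors of the mouse epiblast. They were chosen by name, as the rows of the count file whose Ensembl gene identifiers map to the ligands Fgf4, Fgf5, Fgf15 and Fgf17 and the receptors Fgfr1, Fgfr2, Fgfr3 and Fgfr4. All 8 were found among the 46078 genes of the file. The cells were E14 mouse embryonic stem cells (mESCs), an established line, held in every library for 24 h in serum with LIF, a cytokine that sustains self-renewal. Their substrate was a StemBond hydrogel with a fibronectin coat. These polyacrylamide gels carry the co-factor AHA, whose concentration sets how firmly matrix protein is tethered. The 6 groups of 3 libraries were soft gels (about 750 Pa) and stiff gels (about 160 kPa), each at 3 AHA concentrations, named low for 16 mM, mid for 48 mM and high for 80 mM. The labels name no genetic change and no inhibitor for any group, and the groups differ by the gel as labelled. The labels name one cell line and no separate cultures, so p-values here measure the spread between these libraries, which may be technical.

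FGF ligands are secreted proteins that bind receptor tyrosine kinases at the cell surface together with heparan sulphate chains. The bound receptor docks the adaptor Frs2 and signals through Ras, Raf, Mek and Erk, and Erk in turn raises Sprouty proteins, dual-specificity phosphatases and Ets factors that feed back on it. In the early mouse embryo Fgf4 is made by epiblast cells and drives their neighbours to primitive endoderm through Fgfr1 and Fgfr2, and in mESC cultures it is the main FGF that moves cells out of the naïve state. Fgf5 marks the epiblast after implantation, and Fgf15 and Fgf17 are known from later patterning of the embryo.

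Fgf4 is known for an enhancer inside its own last exon, where Sox2 and Oct4 (the product of Pou5f1) bind side by side. The motif CTTTGTT, read by Sox factors, followed after 3 bases by ATGCTAAT, read by POU factors, was searched on both strands of the GENCODE M21 coding transcripts. It was found in the transcripts of 1 of 21901 genes, Fgf4 (0.00457%), while ATGCTAAT alone was found in 1703 of them (7.78%). The letters and the gap of 3 bases were fixed beforehand as those of the Fgf4 element. A match in Fgf4 was therefore given, and the count of 1 gene is no finding about Fgf4. The match lay on the plus strand of GRCm38 at chr7:144864388-144864417, in the 3′ UTR of Fgf4. It is shown because Fgf4 is the member called between gels and because both factors were measured here. Capitals mark the Sox and POU motifs.
Fgf4 3′ UTR element: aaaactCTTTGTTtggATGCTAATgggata
A match of letters is a description of the sequence and no measure of binding in these cells.

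Gene counts per library ranged from 5850621 to 9290261. Spike-in ERCC RNAs took 0.607 to 0.725% of counts in 17 libraries and 1.37% in soft, high AHA replicate 1, which was left out of the fit, as the study did with libraries of high ERCC share. This left 8 soft and 9 stiff libraries, and a soft, high AHA group of 2. Markers of pluripotent cells were high in every library, with a summed level of 2860 to 3070 CPM on soft and 2630 to 2750 CPM on stiff gels. Markers of other cells were lower but not absent. At a mean over 1 CPM stood 7 of 9 primitive endoderm, 4 of 5 trophoblast, 5 of 6 mesoderm, 4 of 5 neural and 6 of 8 fibroblast markers. The highest were Col1a1, with means of 109 CPM on soft and 155 CPM on stiff gels, Tubb3 (90.7 and 85.0 CPM) and Hand1 (39.5 and 48.8 CPM). Ttr of the endoderm had 0 counts in all 17 libraries, Afp at most 3 and the mesoderm marker Mesp1 at most 2. The pluripotency markers matched the label, and whether a few other cells were present was not tested. CPM is a gene's count per 1000000 counts in the 13438 protein-coding genes tested, after TMM scaling.

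Fgf4 and Fgfr1 were the leading ligand and receptor in these cells. Over the 17 libraries the mean level was 192 ± 11.0 CPM (SD, n = 17) for Fgfr1, 123 ± 14.0 CPM for Fgf4, 79.4 ± 4.43 CPM for Fgfr2 and 23.4 ± 2.15 CPM for Fgf17. The other members were low. Fgf5, the post-implantation ligand, had 12 to 35 counts in a library, Fgf15 8 to 25, Fgfr3 13 to 39 and Fgfr4 2 to 20. All 8 members passed the filter on low counts, but differences of these low-count genes are imprecise, as their intervals below show. For comparison, Fgf17 had 90 to 171 counts, Fgfr2 336 to 515, Fgf4 434 to 882 and Fgfr1 701 to 1357.

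Levels of different genes can be compared only per length. Per kilobase of all annotated exons, Fgf4 stood at 38.4 ± 4.39 CPM per kilobase (SD, n = 17), Fgfr1 at 19.4 ± 1.11, Fgf17 at 13.9 ± 1.27 and Fgfr2 at 7.69 ± 0.429. Fgf5 followed at 1.58 ± 0.527, Fgf15 at 1.12 ± 0.325, Fgfr4 at 0.636 ± 0.243 and Fgfr3 at 0.617 ± 0.179. Each of the first 4 genes was above the next in all 17 libraries. Fgf5 was above Fgf15 in 14 of 17, Fgf15 above Fgfr4 in 16 of 17 and Fgfr4 above Fgfr3 in 8 of 17, so the last pair had no order beyond its spread.

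Part of this order depends on the length used. The receptor genes have many annotated transcripts, 19 for Fgfr1 and 27 for Fgfr2, and their joined exons are long. Per kilobase of the longest coding transcript, Fgfr1 stood at 38.1 ± 2.18 and Fgf4 at 40.5 ± 4.63, and Fgf4 was above Fgfr1 in only 12 of 17 libraries. Fgfr2, at 18.4 ± 1.03, was then above Fgf17 in all 17. On both lengths Fgf4, Fgfr1, Fgf17 and Fgfr2 were each above Fgf5, Fgf15, Fgfr3 and Fgfr4 by their means.

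**Figure D1:**
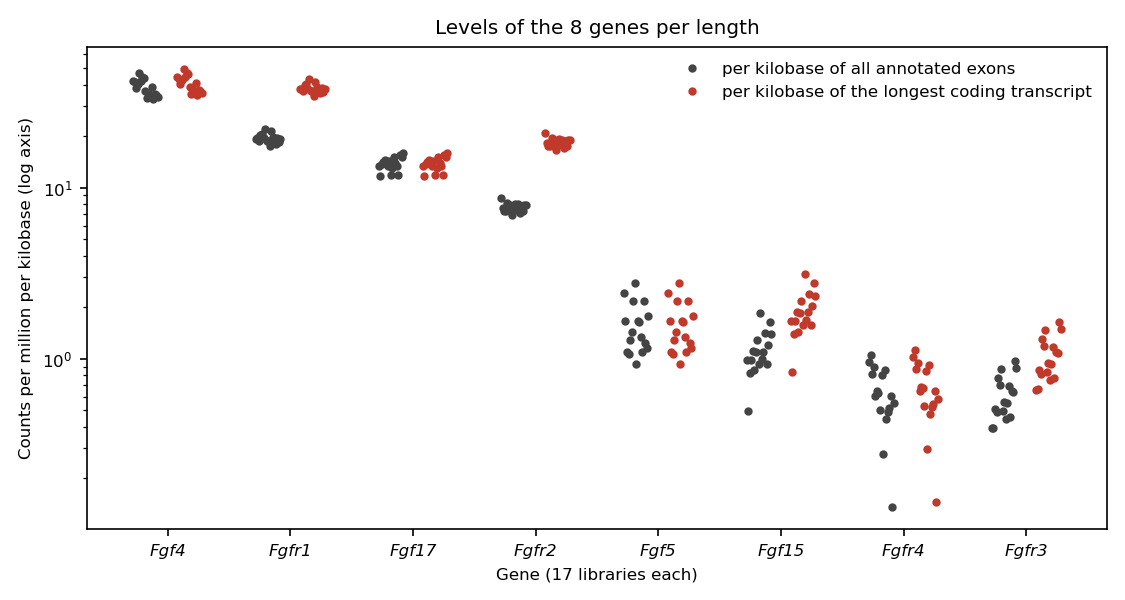
Level of each gene in the 17 libraries fitted, in CPM per kilobase on a log axis, with each point 1 library, divided by the length of all annotated exons (grey) or of the longest coding transcript (red). Fgf4, Fgfr1, Fgf17 and Fgfr2 sit well above the other genes on both lengths, while Fgf4 and Fgfr1 draw level on the second.

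Fgfr1 and Fgfr2 made up most of the receptors in every library. Per length of all exons, Fgfr1 made up 65.7 to 70.3% of the 4 receptors in soft and 66.7 to 70.4% in stiff libraries, and Fgfr2 25.4 to 29.6% and 25.0 to 30.6%. The shares of the low receptors spread more widely, from 1.34 to 3.55% for Fgfr3 and from 0.495 to 3.74% for Fgfr4 over the 17 libraries, with 4.46% for Fgfr4 in the library left out. Among the 4 ligands Fgf4 took 70.5 to 74.8% in soft and 63.7 to 72.7% in stiff libraries, and Fgf17 took 21.3 to 25.4% and 23.6 to 30.3%. These shares are descriptions and carry no test. Without division by length the median share of Fgf4 over the 17 libraries was 80.8% and not 71.0%.

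Fgf4 was the one member called between soft and stiff gels. On low AHA it stood at 134, 132 and 123 CPM in the 3 soft libraries and at 117, 107 and 112 CPM in the 3 stiff ones. On mid AHA it stood at 129, 150 and 135 CPM on soft and at 108, 124 and 106 CPM on stiff gels. On high AHA both soft libraries fitted were at 141 CPM and the stiff ones at 112, 111 and 108 CPM. Within each AHA level every soft library was above every stiff one, a pattern held in 1 direction or the other by 2.23% of all genes tested and by no other member. Pooled over AHA the groups met at the edge. All but 1 of the 8 soft libraries, at 123 CPM, were above the highest stiff library, at 124 CPM. Of all genes, 1.27% had soft and stiff libraries without any overlap, and none of the 8 members did.

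Averaged over the 3 AHA levels, Fgf4 was 1.21-fold higher on soft gels. Its log2 fold change was 0.28 (SE 0.0401, 95% interval 0.20 to 0.36, adjusted p = 1.18e-08, edgeR's quasi-likelihood test with Benjamini-Hochberg adjustment over 13438 genes). The mean of the 8 soft libraries was 135 CPM (SD 8.26) and that of the 9 stiff libraries 112 CPM (SD 5.83). The soft, high AHA library left out had 142 CPM, above all 9 stiff libraries. Of all genes tested, 8.59% passed in this comparison, 3.77% higher and 4.82% lower on soft gels. That 1 of 8 members passed, 12.5%, is near this background, so the result is one about Fgf4 and not about the family. Bulk RNA cannot tell fewer cells that express a gene from less RNA per cell.

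At single AHA levels the same difference was 0.21 (SE 0.0677, adjusted p = 0.078) on low AHA, 0.28 (SE 0.0666, adjusted p = 0.00349) on mid AHA and 0.35 (SE 0.0738, adjusted p = 0.00184) on high AHA. Fgf4 was therefore called at mid and high AHA, where 2.86% and 0.841% of all genes were called, and no member was called at low AHA, where 3.04% were. At low AHA Fgf4 was the 1 member with an unadjusted p under 0.05, where 13.1% of all genes had one, and DESeq2 also called 0 of 8. Over fits that each left out 1 library, the adjusted p of Fgf4 ran from 0.053 to 0.313 at low AHA, from 0.000535 to 0.113 at mid AHA and from 0.00128 to 0.0492 at high AHA. The call at mid AHA was lost without soft, mid AHA replicate 2 (log2 fold change 0.22, adjusted p = 0.113) or stiff, mid AHA replicate 3 (0.24, adjusted p = 0.0624). That the change grew with AHA was not shown. The test of the interaction, which asks whether the 3 soft minus stiff differences were equal, gave adjusted p = 0.939 for Fgf4.

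**Figure D2:**
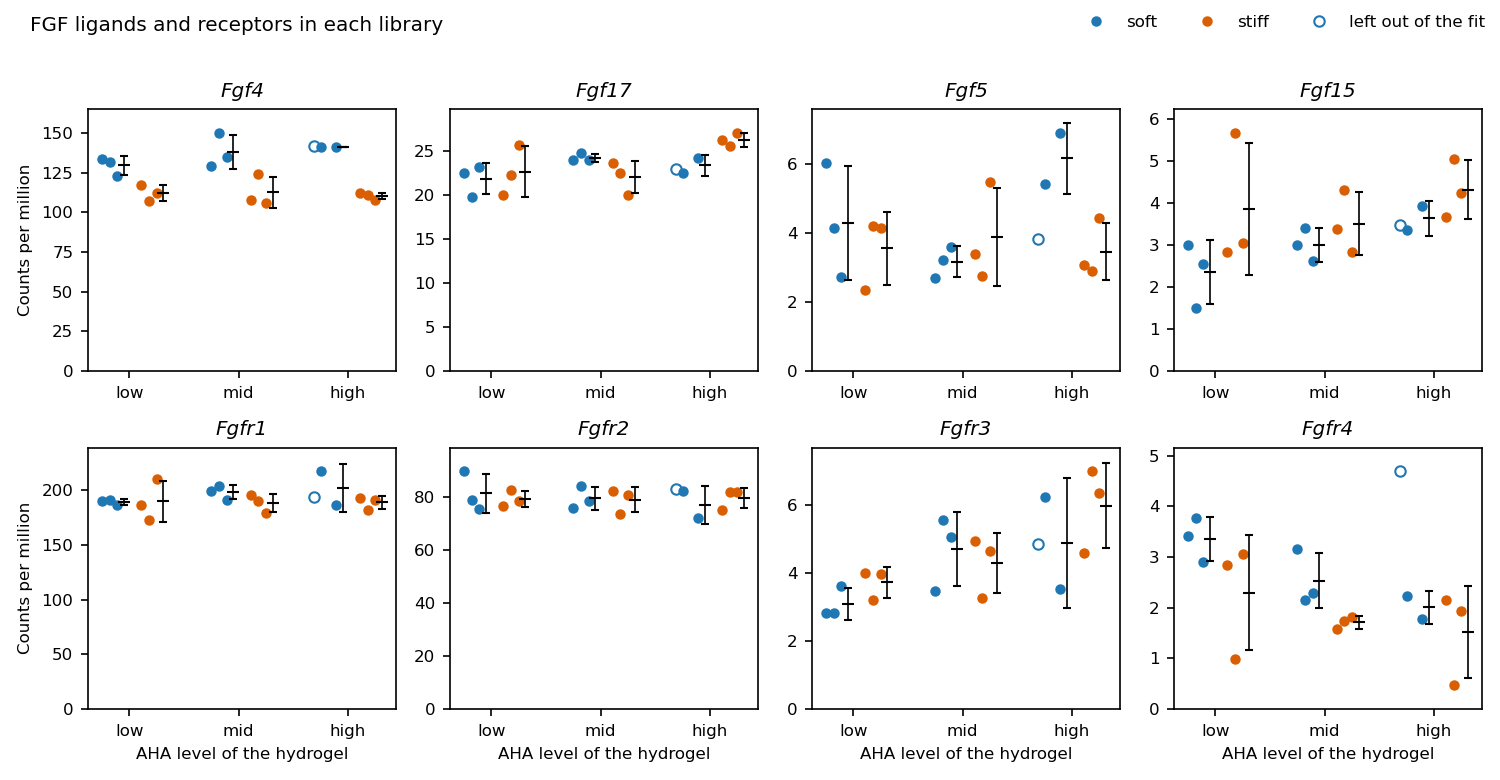
CPM of each gene by AHA level and stiffness, with each filled point 1 library, black bars the mean ± SD of a group and the open circle the library left out of the fit. In the first panel the soft libraries of Fgf4 sit above the stiff ones at each AHA level, while the other panels show overlap in most groups and wide spread for the low-count genes.

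Fgf17, the second ligand by level, did not differ detectably. It ranged from 19.8 to 24.7 CPM with a median of 23.5 on soft gels and from 20.0 to 27.0 CPM with a median of 23.6 on stiff gels. The log2 fold change was -0.03 (SE 0.0847, 95% interval -0.20 to 0.14, adjusted p = 0.899). The soft libraries fitted were all above the stiff ones on mid AHA and all below them on high AHA, but the interaction for Fgf17 had adjusted p = 0.937. Soft libraries were likewise all above stiff ones for Fgfr4 on mid AHA and for Fgf5 on high AHA. The share of all genes so parted at a single AHA level was not counted.

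Fgf5 spread widely at its low counts. Soft libraries ran from 2.69 to 6.89 CPM with a median of 3.87, and stiff libraries from 2.34 to 5.47 CPM with a median of 3.38. Its averaged log2 fold change of 0.27 (SE 0.207, adjusted p = 0.506) had a 95% interval from -0.14 to 0.68. It was 0.17 without soft, low AHA replicate 1, and 0.38 without stiff, mid AHA replicate 3, the lowest and highest of the fits that left out 1 library. On high AHA the 2 soft libraries fitted, at 5.43 and 6.89 CPM, were above the stiff ones, at 3.07, 2.89 and 4.42 CPM. That difference of 0.81 (SE 0.365, adjusted p = 0.382) did not pass, and the left-out library of the same gel had 3.82 CPM, inside the stiff range.

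Fgf15, known as a target of Fgf receptor signalling in the hindbrain and as a gut hormone, had a lower median on soft gels, and the difference did not pass. Soft libraries had 1.51 to 3.94 CPM with a median of 3.01 and stiff libraries 2.83 to 5.67 CPM with a median of 3.68. The groups overlapped, and the log2 fold change of -0.38 (SE 0.223, 95% interval -0.82 to 0.06) had adjusted p = 0.35. Of the exon bases of Fgf15, 25.7% lie opposite other annotated genes, and whether counting used the strand was not stated. One of them, Gm26793, had 0 to 7 counts in a library.

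Neither of the leading receptors was called, and the intervals of both were narrow around 0. Fgfr1, the receptor through which mESCs mainly read Fgf4, had 186 to 217 CPM (median 191) on soft and 173 to 210 CPM (median 190) on stiff gels. Its log2 fold change was 0.06 (SE 0.0341, 95% interval -0.01 to 0.12, adjusted p = 0.382), and it ran from 0.0115 without soft, high AHA replicate 2 to 0.0887 without replicate 3 of that group. Fgfr2, known as the receptor raised in primitive endoderm, had 71.9 to 89.7 CPM (median 78.7) on soft and 73.7 to 82.8 CPM (median 80.8) on stiff gels. Its log2 fold change was below 0.01 in size, with a 95% interval from -0.09 to 0.10 (adjusted p = 0.978). The interval of Fgf4, from 0.20 to 0.36, lies above those of both receptors. Fgfr2 shares 3.04% of its exon bases with Ctbp2 on the same strand, so reads there may not be assigned to it.

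Fgfr3 and Fgfr4 are low here and their changes were not resolved. Fgfr3 had 2.81 to 6.23 CPM (median 3.59) on soft and 3.20 to 6.99 CPM (median 4.60) on stiff gels, a log2 fold change of -0.13 (95% interval -0.52 to 0.26, adjusted p = 0.785). Without soft, high AHA replicate 2 this value was -0.29, and without replicate 3 of that group it was -0.02. Fgfr4 had 1.77 to 3.77 CPM (median 2.60) on soft and 0.482 to 3.06 CPM (median 1.82) on stiff gels. In 7 of 8 soft libraries it was above the stiff median, but the log2 fold change of 0.46 (SE 0.28, 95% interval -0.10 to 1.01) had adjusted p = 0.377. With all 18 libraries fitted it was 0.63 (adjusted p = 0.112). The library otherwise left out held 27 counts of Fgfr4.

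**Figure D3:**
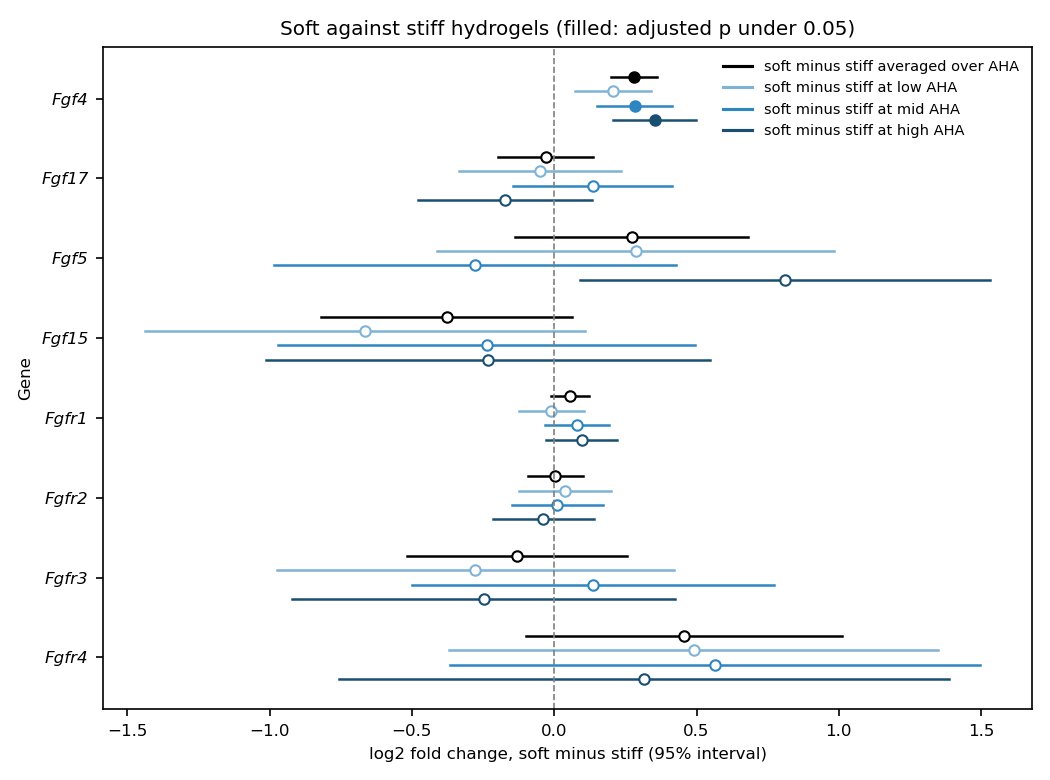
Log2 fold change of each gene, soft minus stiff, averaged over AHA (black) and at each AHA level (blue shades), with 95% intervals, where filled points passed an adjusted p of 0.05. The 4 intervals of Fgf4 lie above 0, those of Fgfr1 and Fgfr2 are narrow around 0, and those of Fgf5, Fgf15, Fgfr3 and Fgfr4 are wide.

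Matrix tethering, set by AHA, gave no call for any member. In high minus low AHA averaged over stiffness 0 of 8 members were called, where 0.112% of all genes were. In this comparison 1 member, Fgfr3, had an unadjusted p under 0.05, as did 8.64% of all genes. On stiff gels Fgfr3 stood at 4.01, 3.20 and 3.96 CPM on low AHA and at 4.60, 6.99 and 6.36 CPM on high AHA. On soft gels it stood at 2.81, 2.83 and 3.63 CPM on low and at 6.23 and 3.54 CPM on high AHA. The groups were apart on stiff and overlapped on soft gels. The averaged log2 fold change of Fgfr3 was 0.66 (SE 0.245, 95% interval 0.18 to 1.14), with adjusted p = 0.342. The overlapping gene on the other strand, G630022F23Rik, which faces 13.9% of its exon bases, had 0 to 3 counts.

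For Fgf4 the high minus low AHA log2 fold change averaged over stiffness was 0.05 (SE 0.0501, 95% interval -0.05 to 0.15) with adjusted p = 0.856. For Fgfr4 it was -0.64 (SE 0.346) with adjusted p = 0.631. In the 6 contrasts between AHA levels at 1 stiffness no member was called, where 0.275% of all genes were called in at least 1 contrast. An unadjusted p under 0.05 was found in 2 of these tests of 8 members in 6 contrasts. These were Fgf5 in high minus mid AHA on soft gels (log2 fold change 0.95, adjusted p = 0.544) and Fgfr3 in high minus low AHA on stiff gels (0.65, adjusted p = 0.814). In these 2 contrasts 6.81 and 6.04% of all genes had one. The interaction called 0 of 8 members and 0.0298% of all genes. No member had an unadjusted p under 0.05 there, where 6.71% of all genes did. DESeq2 called 0 of 8 in each of these as well.

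The factors of the Fgf4 enhancer were both abundant. Sox2 rose on soft gels, to a mean of 338 CPM (SD 16.1, n = 8) against 294 CPM (SD 19.1, n = 9). Its log2 fold change was 0.19 (SE 0.0293) with adjusted p = 9.4e-08. Pou5f1 stood at 551 ± 22.4 CPM on soft and 540 ± 30.0 CPM on stiff gels, and its log2 fold change of 0.03 (SE 0.0254, adjusted p = 0.514) did not pass. Of the exon bases of Pou5f1, 14.1% lie opposite other genes. Of the pluripotency markers, 7 of 9 were called higher on soft gels, as Fgf4 was, and 1, Utf1, lower, where 3.77% of all genes were called higher and 4.82% lower. Markers of fibroblasts summed to 115 to 196 CPM on soft and 170 to 241 CPM on stiff gels, with Col1a1 called lower on soft of 6 markers tested. Trophoblast markers summed to 80.6 to 111 CPM on soft and 103 to 125 CPM on stiff gels, with Hand1 and Krt7 called lower of 4 tested. Primitive endoderm markers summed to 36.8 to 51.4 CPM on soft and 37.6 to 49.3 CPM on stiff gels, mesoderm markers to 19.5 to 31.9 and 21.9 to 36.1 CPM, and neural markers to 107 to 118 and 89.5 to 110 CPM. The part of these shifts in the Fgf4 result was not tested.

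Genes whose log2 CPM ran most like that of Fgf4 over the 17 libraries were Nanog, a core pluripotency factor (Pearson r = 0.909), the RNA helicase gene Mov10 (r = 0.899) and Ildr1 (r = 0.889), out of 9224 genes with a mean of at least 10 CPM. These points share the split by stiffness. Within the 8 soft libraries the values were 0.375, 0.597 and 0.516, and within the 9 stiff ones 0.725, 0.594 and 0.601. For Fgfr1 the nearest was Zfp281 (r = 0.838), with 0.652 within soft and 0.932 within stiff libraries. The nearest genes of the other members were Serpine2 for Fgf5 (r = 0.721), Cwc15 for Fgf15 (0.763), Crtap for Fgf17 (0.77), Wdr59 for Fgfr2 (0.756), Mier2 for Fgfr3 (0.854) and Zyg11a for Fgfr4 (0.846). These values are descriptions, taken as the highest among the genes compared.

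Fgf4, Fgf15 and Fgf3 lie close together on chromosome 7, beside the cyclin gene Ccnd1. Fgf4 spans 144847367 to 144865243 on the plus strand of GRCm38, and Fgf15 starts 49.2 kb further on. Ccnd1, whose product drives entry into S phase, starts 92.6 kb from Fgf4 and fell on soft gels, from 135 to 112 mean CPM (log2 fold change -0.28, SE 0.0401, adjusted p = 1.16e-08). Cttn, which encodes the actin-binding protein cortactin, fell by 0.11 (SE 0.0303, adjusted p = 0.00923) on the log2 scale. That call was lost without stiff, low AHA replicate 3 (adjusted p = 0.0692, with a lowest value of 0.00232 over such fits). Fgf3, the nearest neighbour, had 4 to 21 counts and a fitted change of 0.16 on the log2 scale (SE 0.309, adjusted p = 0.846). LTO1, Ano1, Fadd, Ppfia1 and Tpcn2 also did not pass, with values from -0.03 to 0.23, and Mrgprf and Mrgprd were too low to test.

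**Figure D4:**
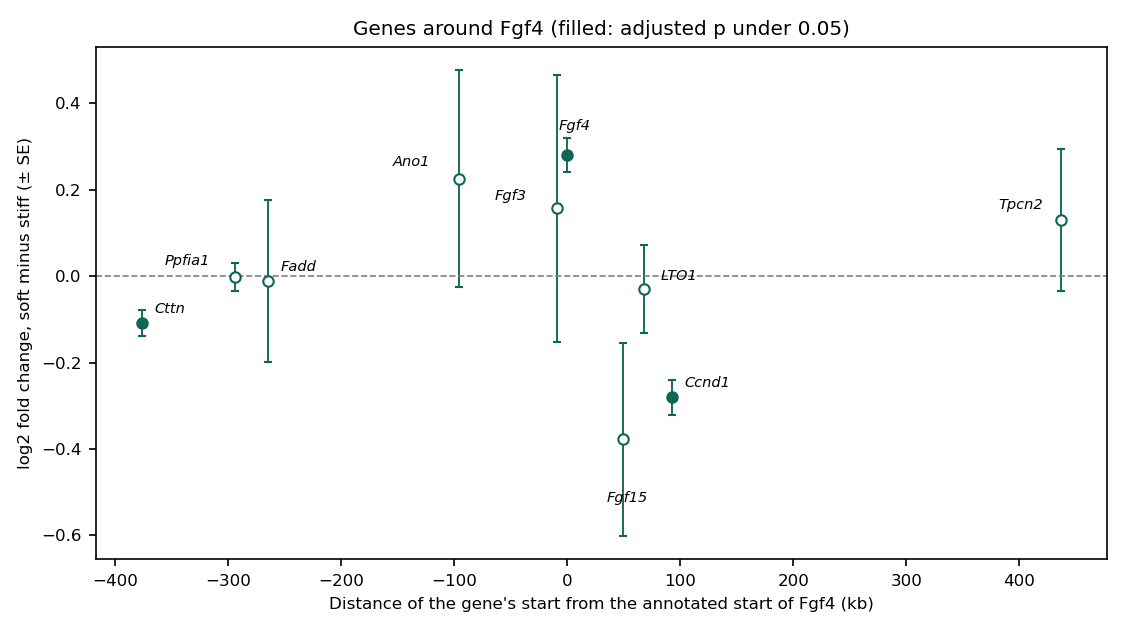
Log2 fold change, soft minus stiff averaged over AHA, of the protein-coding genes tested within 500 kb of the start of Fgf4, against the distance of their starts in kilobases, with bars for the SE and filled points for an adjusted p under 0.05. Fgf4 at 0.28 and Ccnd1 at -0.28 lie at opposite sides of 0, and Cttn is the only other filled point.

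Other secreted ligands were scarce. Of 14 further Fgf genes, 6 passed the filter on low counts and 0 were called between soft and stiff gels, where 8.59% of all genes were. DESeq2 also called 0. An unadjusted p under 0.05 was found for 1 of the 6, Fgf10, and for 20.5% of all genes. The 6 had a median log2 fold change of 0.22, against 0.00 over all genes tested. Their levels were low, from Fgf18 at means of 7.75 and 7.65 CPM on soft and stiff gels (SD 1.92 and 0.94) down to Fgf2 at 0.929 and 0.899 CPM. Of the exon bases of Fgf2 9.44% lie opposite other genes, and of those of Fgf10 2.67%. Of the 4 intracellular FGF homologous factors, which do not signal through receptors, 2 were tested and 0 called against the same 8.59%, with 0 at an unadjusted p under 0.05 and 0 by DESeq2. Fgf13 was the highest of them, at 12.4 ± 2.51 CPM on soft and 14.2 ± 2.17 CPM on stiff gels.

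Co-receptors and heparan sulphate genes, which help ligands reach their receptors, had 5 of 24 called between soft and stiff gels, 4 lower and 1 higher, where 8.59% of all genes were called, 4.82% lower and 3.77% higher. Hspg2, the matrix proteoglycan perlecan, fell from 1320 ± 93.0 to 1180 ± 63.4 CPM on soft gels (log2 fold change -0.16, adjusted p = 1.25e-05). Gpc4, a glypican of the cell surface, fell by 0.18 (adjusted p = 0.00161) on the log2 scale, Hs6st2, a heparan sulphate sulphotransferase, by 0.37 (adjusted p = 0.00929) and Fgfbp1, a carrier of FGFs, by 0.28 (adjusted p = 0.0218). Sdc4, a syndecan of adhesion sites and the 1 that rose, changed by 0.14 (adjusted p = 0.0285). The list's median was -0.08. Without soft, high AHA replicate 2 the list had 2 calls, since Hspg2 and Gpc4 were called in all 17 fits that left out 1 library and Sdc4 (adjusted p = 0.208), Hs6st2 (0.0855) and Fgfbp1 were not called in this one. Fgfbp1 was also lost in other such fits, with adjusted p up to 0.0974.

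Between receptor and Erk, 1 of 22 signal relay genes was called, where 8.59% of all genes were. Braf, a Raf kinase whose exons lie opposite other genes for a small part, fell by 0.15 (SE 0.0489, adjusted p = 0.0367) on the log2 scale on soft gels, and the call was lost in 9 of 17 fits that each left out 1 library, with adjusted p from 0.00966 to 0.189, and under DESeq2 (adjusted p = 0.125). The adaptor gene Frs2, at 73.3 ± 3.52 CPM on soft and 74.1 ± 6.45 CPM on stiff gels, had a fitted change of -0.02 on the log2 scale (SE 0.0498, adjusted p = 0.905). Mapk3, which encodes an Erk kinase, had a log2 fold change of 0.11 (adjusted p = 0.312). The list's median was -0.03.

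Among genes listed here as raised by Erk signalling, most calls were lower on soft gels averaged over AHA. Of 12 feedback inhibitors tested, 5 fell and 1 rose, and the median was -0.10, against backgrounds of 4.82% lower and 3.77% higher. The Erk phosphatase gene Dusp4 fell to a mean of 116 CPM (SD 11.8) on soft gels from 149 CPM (SD 6.28), by 0.35 on the log2 scale (SE 0.0381, adjusted p = 1.92e-13). Its highest soft library, at 137 CPM, was below its lowest stiff one, at 139 CPM, where 1.27% of all genes had no overlap. Dusp5, with 22.1% of its exon bases opposite other genes, fell by 0.27 (adjusted p = 8.51e-05), Dusp9 by 0.21 (adjusted p = 5.49e-08) and Dusp6 by 0.20 (adjusted p = 0.00142) on the log2 scale. Spred1 fell by 0.11 (adjusted p = 0.0227), a call lost in 6 of 17 fits without 1 library, with adjusted p up to 0.102. Il17rd, known as Sef, rose by 0.20 (adjusted p = 0.00504). The Sprouty genes Spry1, Spry2 and Spry4 did not pass, at log2 fold changes of 0.12, -0.10 and -0.06, and 24.4% of the exon bases of Spry1 lie opposite other genes. These genes answer to other inputs of Erk as well as to FGF, and whether Erk raised each of them in these cells was not tested.

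By AHA level, 3 of the 12 feedback inhibitors were called at low AHA and 3 at mid AHA, all lower on soft gels, where 3.04 and 2.86% of all genes were called. The count at low AHA was 1 without stiff, low AHA replicate 1 or without replicate 3 of that group, and the count at mid AHA was 2 under DESeq2 and in 4 fits that left out a mid AHA library. At high AHA, with 2 soft libraries and a background of 0.841%, 0 were called by edgeR and 0 by DESeq2. There 4 of the 12 had an unadjusted p under 0.05, as did 10.5% of all genes. With all 18 libraries 3 were called at high AHA. With soft, high AHA replicate 2 or 3 left out in place of replicate 1, 3 and 2 were called. Dusp4 had log2 fold changes of -0.47 at low AHA (adjusted p = 1.15e-08), -0.35 at mid AHA (adjusted p = 3.2e-05) and -0.22 at high AHA (adjusted p = 0.114). In the fit of all 18 libraries the last was -0.30 (adjusted p = 0.000901). With soft, high AHA replicate 2 or 3 left out in place of replicate 1, it was -0.37 (adjusted p = 0.000167) and -0.32 (adjusted p = 0.00262). Dusp4 was also called higher on high than on low AHA within soft gels, by 0.31 (adjusted p = 0.0138), where 0.253% of all genes were called. That call was lost without soft, high AHA replicate 2 (0.26, adjusted p = 0.474), without soft, low AHA replicate 1 (0.27, adjusted p = 0.247) and with all 18 libraries (0.23, adjusted p = 0.118). It was also lost with soft, high AHA replicate 2 (0.16, adjusted p = 0.538) or replicate 3 (0.21, adjusted p = 0.245) left out in place of replicate 1. The interaction of stiffness and AHA did not pass for Dusp4 (adjusted p = 0.729), so a difference of its soft minus stiff values between AHA levels was not shown. Of the 9 transcriptional outputs, 3 were called lower and 1 higher at low AHA, 2 lower at mid AHA, and 1 lower and 1 higher at high AHA. Leaving out 1 library brought these counts down to 2 at low AHA (without soft, low AHA replicate 1 or 2, or stiff, low AHA replicate 2 or 3), to 1 at mid AHA (without soft, mid AHA replicate 2 or 3, or stiff, mid AHA replicate 1, and up to 3 without stiff, mid AHA replicate 3) and to 1 at high AHA (without soft, high AHA replicate 2 or 3, or stiff, high AHA replicate 2 or 3). Under DESeq2 the counts were 3, 2 and 1.

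Of 9 transcriptional outputs tested, 4 fell and 1 rose, against backgrounds of 4.82% lower and 3.77% higher, with a median of -0.05. Etv4, an Ets factor raised by FGF in many tissues, fell from 92.8 ± 5.93 to 63.7 ± 6.07 CPM on soft gels (log2 fold change -0.56, SE 0.0501, adjusted p = 2.56e-18). Its soft (55.1 to 71.6 CPM) and stiff (85.0 to 105 CPM) libraries did not overlap, which held for 1.27% of all genes. Its relative Etv5 was at 190 ± 7.13 CPM on soft and 180 ± 9.89 CPM on stiff gels and did not pass (0.08, adjusted p = 0.141). Ier3, an immediate early gene, fell by 0.86 (adjusted p = 0.00013) and Myc by 0.22 (adjusted p = 1.7e-05) on the log2 scale. Fos rose by 0.81 (SE 0.137, adjusted p = 1.98e-06), with soft libraries at 11.6 to 13.9 CPM inside the stiff range of 3.94 to 14.6 CPM. Fosl1 fell by 0.35 (adjusted p = 0.0488), a call lost in 12 of 17 fits without 1 library, with adjusted p up to 0.195, and 57.2% of its exon bases lie opposite other genes. Egr1, at 29.5 ± 3.63 and 28.3 ± 2.79 CPM, did not pass (adjusted p = 0.804).

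**Figure D5:**
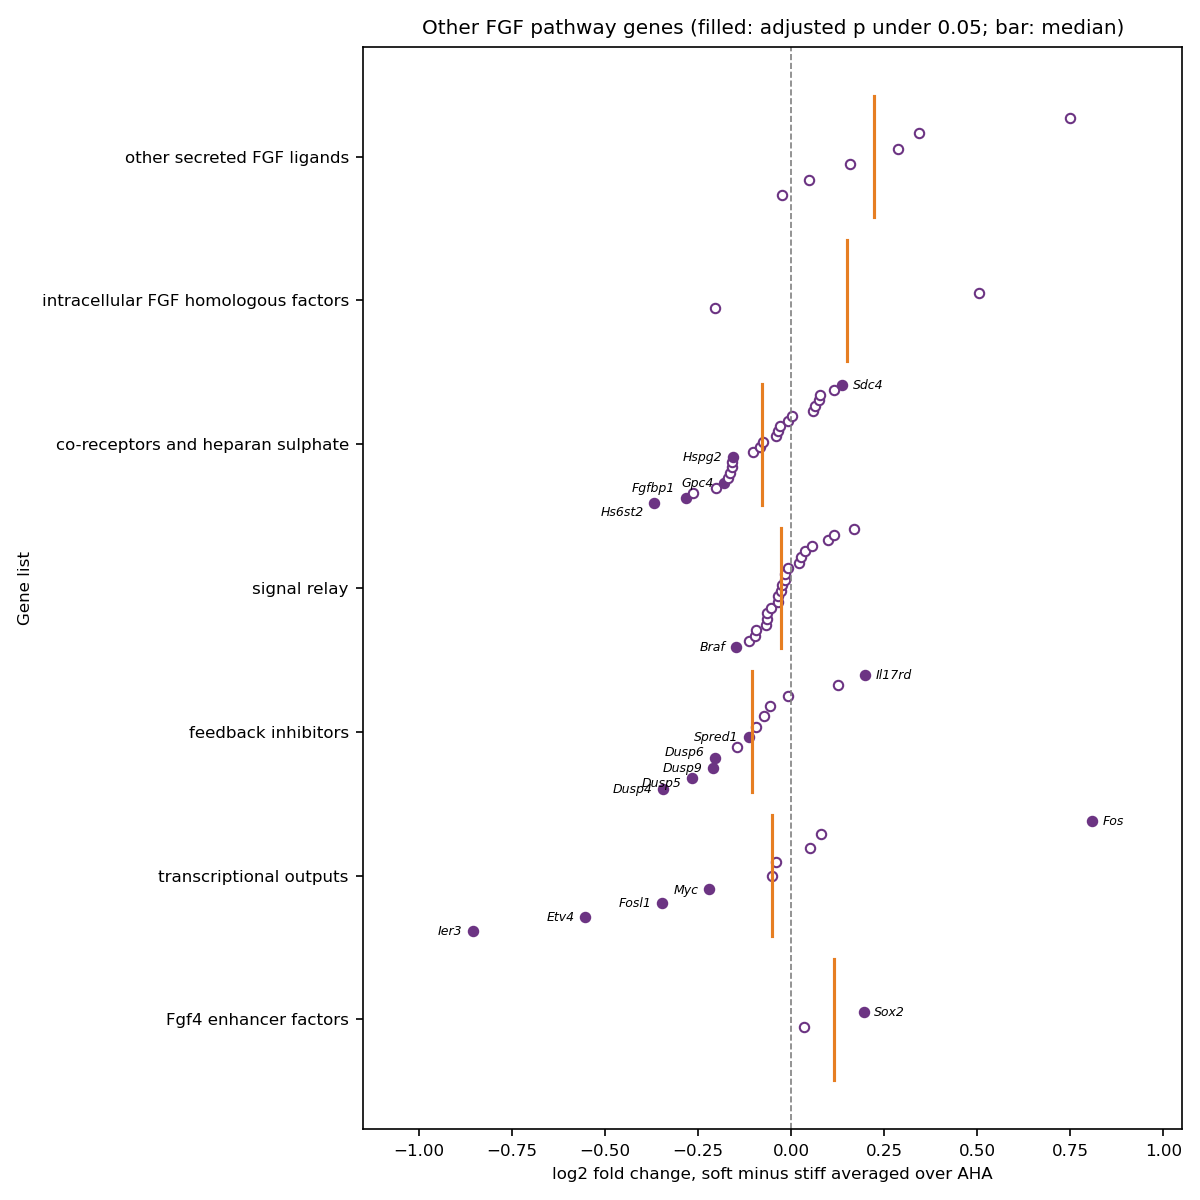
Log2 fold change, soft minus stiff averaged over AHA, of each tested gene of the FGF pathway lists, where filled points passed an adjusted p of 0.05 and orange bars mark the list medians. Fgf ligands other than the members hold no filled point, feedback inhibitors and outputs hold most of them, and Fos and Ier3 lie farthest from 0, at 0.81 and -0.86.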

How the data were processed

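The authors trimmed reads with Trim Galore 0.4.4, mapped them to GRCm38/mm10 with GSNAP and used HTSeq to assign reads to Ensembl genes. The deposited table held raw counts. Whether counting used strand was not stated. HTSeq summary lines, 61.5 to 64.0% of each column, stayed out of library sizes and tests. Symbols, lengths and places came from GENCODE M21 (GRCm38).

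Members and lists were chosen with earlier results of these data known. Protein-coding genes that filterByExpr kept at a minimum count of 10 entered edgeR 4.0.16 (R 4.3.3), with TMM scaling, a coefficient for each group and the robust quasi-likelihood test. Benjamini-Hochberg adjustment was done for each contrast separately, and a call meant an adjusted p under 0.05. The exact test planned for members failing the filter was not needed. Correlations used log2(CPM + 0.5). Named genes were the members, up to 4 called genes of each list by lowest adjusted p, the 3 genes most alike to each member by correlation, of which the first is printed for 7 members, and coding genes within 500 kb of Fgf4 and Fgf15. Replicates were numbered here in accession order, as the labels give no numbers. Sdc4, Spred1, Il17rd, Fosl1 and genes named as not called were picked after their values were seen. Replicate pairs within groups differed beyond counting noise (chi-square per degree of freedom 1.81 to 3.02). Alternatives were RLE scaling, DESeq2 1.42.0, no filter, all biotypes, all 18 libraries, fits of the compared groups only and leaving out each library.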

Additional observations from a re-analysis of the deposited data

Results flagged for a closer look

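Fgf17 in soft, low AHA replicate 2 stood at 19.8 CPM, far below the other soft libraries by Dixon's criterion, in which the others ranged from 22.5 to 24.7 CPM. A gap of this size is met by chance in about 1 of 20 groups, and 16 groups (8 genes in 2 stiffnesses) were examined. Fgfr4 in the library left out of the fit, soft, high AHA replicate 1, stood at 4.69 CPM (27 counts), above all 17 libraries fitted, in which it ranged from 0.482 to 3.77 CPM.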

How the results depend on the processing

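Averaged over AHA, Fgf4 was the called member in each of the 17 fits that left out 1 library, with log2 fold changes from 0.26 to 0.31, and under each of the 7 other settings, from 0.280 to 0.285. At mid AHA the number of members called ranged from 0 to 1 over the fits that left out 1 library. The direction of Fgfr2 changed in 6 of these fits, with values from -0.0355 to 0.0331, and that of Fgf17 in 1, with values from -0.0594 to 0.01. Neither passed in any of them, and the cause was not tested. No other member changed direction in the averaged comparison, and the counts of members called were unchanged under the other settings. The settings that left out soft, high AHA replicate 2 or 3 in place of replicate 1 were chosen after seeing the data, as were list counts without single libraries and the length of the longest transcript. With replicate 3 left out in place of replicate 1, the averaged log2 fold change of Fgf5 was 0.14 and that of Fgfr4 0.71 (adjusted p = 0.785 and 0.0813). Fits without soft, high AHA replicate 2 or 3 leave 1 library in that group, which is assumed to vary like the others. Over all genes, calls of soft minus stiff at high AHA numbered 113 and were 69 with DESeq2, 341 with all 18 libraries and 384 or 257 with replicate 2 or 3 left out in place of replicate 1, those of high minus low AHA averaged over stiffness 15 and from 7 to 28, and those of the interaction 4 and from 2 to 12. In fits without 1 library, those of high minus low AHA went down to 5 without soft, high AHA replicate 2 and up to 65 without replicate 3, and those of the interaction from 3 without that replicate to 12 without stiff, low AHA replicate 2. Those of soft minus stiff fell to 42 at high AHA without soft, high AHA replicate 3, from 384 to 222 at mid AHA without soft, mid AHA replicate 2 and from 408 to 245 at low AHA without soft, low AHA replicate 1. Signal relay genes called ranged from 0 to 3 over all settings. No paired analysis was possible because the labels number no replicates, and the replicate numbers used here follow accession order and only name libraries. Depth limits Fgf5, Fgf15, Fgfr3 and Fgfr4, which had at most 39 counts in a library fitted.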
